A study of Mus musculus with 6 samples.

Results

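Raver2, Dynlt1b, H2-T10, Gm5506, Gm8801, Tmem181b-ps, Padi4, Fhl3, BC002163 and Rbm45, 10 of the 23420 genes counted in the embryonic mouse lens, were at least several times higher in every library of 1 genotype than in any library of the other. For 7 of them the lower group held 0 or 1 counts in all, whereas Gm5506, BC002163 and Rbm45 had counts in every library. They were chosen from the raw counts of this same comparison because all 3 libraries of 1 group held almost no counts or about 10 times less than all 3 of the other. Their group difference is therefore described without a test. RNA was sequenced from E14.5 embryos in the lens transition zone, the band in which dividing epithelial cells leave the cell cycle and lengthen into fibres. The 3 mutant libraries carried Le-Cre with null Etv4 alleles (Etv4-/-) and floxed Etv5 (Etv5fl/fl) and Etv1 (Etv1 fl/fl) alleles. The 3 control libraries carried Le-Cre alone, so both groups share the transgene, which expresses Cre recombinase in lens-forming surface ectoderm. The Etv4 alleles are null in the whole embryo, whereas the floxed alleles are altered only where Cre acts. Both groups are labelled as mixed background, and the strain of each embryo is not given in the sources used here. Whether the groups differ in strain at the 10 genes was not tested.

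Several of the 10 genes are copies. A retrocopy arises when a spliced messenger RNA is copied back into the genome, and gene clusters such as those of the Dynlt1 and Tmem181 genes or of the major histocompatibility complex (MHC) class I genes grow by duplication of a stretch of chromosome. Counts assigned to such a gene depend both on its transcription and on how reads that match more than 1 place in the reference genome are assigned.

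Library totals lay between 13364742 and 17301168 counts, and levels are given as CPM, library-size-scaled counts after normalization by the trimmed mean of M values (TMM). All 9 genes of the lens marker list had counts, with a summed level of 150262 to 274703 CPM in mutant and 146112 to 331079 CPM in control libraries. The 4 macrophage markers summed to 2.97 to 9.08 CPM in mutant and 0.609 to 2.61 CPM in control libraries, and the 4 surface and corneal epithelium markers, with Krt12 at 0, to 1.57 to 7.24 and 0.443 to 2.003 CPM. The 6 blood markers, of which the globin genes Hba-a1, Hba-a2, Hbb-b1 and Hbb-b2 were at 0, summed to 70.0 to 269 CPM in mutant and 52.4 to 156 CPM in control libraries. The lists for neural retina, periocular mesenchyme and endothelium stayed between 0 and 11.8 CPM in every library. The part of these cells in the results below was not tested, and in bulk tissue fewer cells of a type cannot be told apart from less RNA per cell. Xist reached 711 counts in mutant library 1, where the Y-linked gene Ddx3y had 2, against 521 to 890 counts of Ddx3y in the other 5 libraries. Of the targeted genes, Etv1 fell by 1.11 ± 0.21 on the log2 scale (SE; edgeR adjusted p = 0.0319), while Etv5 (103 CPM in mutant and 197 CPM in control libraries, adjusted p = 0.0503) and Etv4 (4.27 and 2.75 CPM, adjusted p = 0.427) did not pass; counts per whole gene do not show whether a deleted part is missing. Separate embryos are not stated for the libraries, and p-values therefore cover library-to-library spread, which may be technical.

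Sequence shows how close some of these copies are to one another. In the GENCODE M21 transcripts of the mouse (GRCm38), the 339 coding bases of Dynlt1b, a light chain of the motor protein dynein, differ from those of Dynlt1a, Dynlt1c and Dynlt1f at 1 position each (A21C, with the Dynlt1b base first and positions counted from 1 at the A of the start codon). The first 60 coding bases of each are shown, 5′ to 3′, with the differing base in capitals.
Dynlt1b: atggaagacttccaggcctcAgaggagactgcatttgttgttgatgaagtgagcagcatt
Dynlt1a: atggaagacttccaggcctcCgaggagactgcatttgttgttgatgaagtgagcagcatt
Dynlt1c: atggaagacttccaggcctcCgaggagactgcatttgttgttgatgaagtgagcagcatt
Dynlt1f: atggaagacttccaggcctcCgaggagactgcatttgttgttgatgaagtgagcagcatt

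BC002163 is annotated as a processed pseudogene, and its transcript matches the 318 coding bases of Ndufs5, which encodes a subunit of complex I of the respiratory chain, except at 2 positions (T81C and A105G, Ndufs5 base first). The stretch from coding base 61 to 120 holds both, in capitals.
Ndufs5: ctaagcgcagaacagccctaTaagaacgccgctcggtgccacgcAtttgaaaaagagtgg
BC002163: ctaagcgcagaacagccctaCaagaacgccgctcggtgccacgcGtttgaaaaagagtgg

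The 6 genes Raver2, Padi4, Rbm45, Dynlt1b, Tmem181b-ps and Gm5506 were lower in mutant libraries. Raver2, which encodes an RNA-binding protein that partners with the splicing repressor PTB, had 1, 0 and 0 counts in mutant libraries 1, 2 and 3, against 342, 736 and 1396 counts in control libraries 1, 2 and 3. Scaled to library size, the control values were 25.5, 44.7 and 77.3 CPM. The groups are far apart, although the control libraries also differ from one another. Summed over libraries, the control level was 2592 times the mutant level (95% exact interval 465 to 102431, counting error only). Padi4, which encodes a peptidylarginine deiminase that converts arginine to citrulline in histones and other proteins, had 1, 0 and 0 counts in mutant and 71, 87 and 30 counts in control libraries. Its control values of 5.30, 5.28 and 1.66 CPM leave control library 3 the lowest, whereas the same library was the highest for Raver2. The control level of Padi4 was 197 times the mutant level (95% exact interval 34.9 to 7822).

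Rbm45, which encodes an RNA-binding protein with RNA recognition motifs, was low rather than near 0. It stood at 4.72, 4.12 and 5.72 CPM in mutant libraries and 44.8, 39.1 and 40.6 CPM in control libraries. The values within each group lay close together. The control level was 8.36 times the mutant level (95% exact interval 7.32 to 9.58, counting error only). This ratio of summed counts lay below 10 in these libraries, and the interval leaves out the spread between libraries. Dynlt1b had 0, 0 and 1 counts in mutant and 121, 388 and 390 counts in control libraries, and the control values were 9.04, 23.6 and 21.6 CPM. Control library 1 was the lowest by more than the gap between the others. Tmem181b-ps, an expressed pseudogene of the membrane protein gene Tmem181a, had 0 counts in every mutant library and 140, 201 and 198 counts in control libraries. At 3 counts over the whole mutant group, the limit that a count of 0 allows is 0.0597 CPM, so the control level was at least 188-fold higher than in mutants.

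Gm5506, named Eno1b in RefSeq, is a retrocopy of the gene of the glycolytic enzyme enolase 1. It had 56, 40 and 76 counts in mutant and 2334, 3050 and 2848 counts in control libraries. These are 2.84, 3.30 and 4.14 CPM against 174, 185 and 158 CPM, and no mutant library came near the control range. The control level was 50.1 times the mutant level (95% exact interval 43.1 to 58.7).

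**Figure D1:**
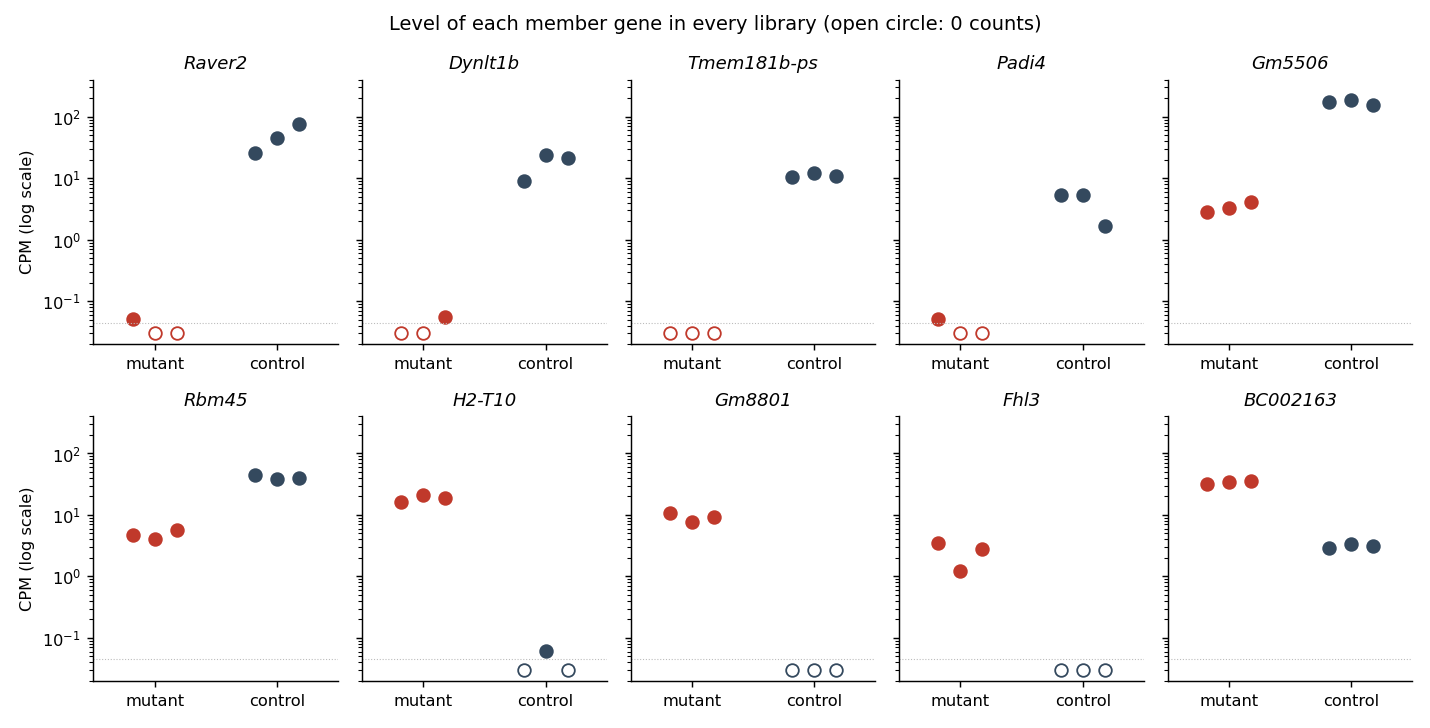
CPM (log scale) of the 10 genes in each of the 3 mutant (left) and 3 control libraries (right); each point is 1 library, in replicate order, and open circles below the dotted line are libraries with 0 counts. The groups do not overlap for any of the 10 genes, and 6 are lower and 4 higher in mutants.

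The other 4 genes were higher in mutant libraries. H2-T10 belongs to the T region of MHC class I genes, whose products resemble the molecules that present peptides to T cells. RefSeq lists it as a transcribed pseudogene and GENCODE as a polymorphic pseudogene. It had 315, 252 and 346 counts in mutant and 0, 1 and 0 counts in control libraries, with mutant values of 16.0, 20.8 and 18.8 CPM. Gm8801, a pseudogene on the same chromosome, had 212, 92 and 170 counts in mutant libraries, or 10.7, 7.58 and 9.26 CPM, and no count in any control library. With a limit of 0.0626 CPM for the control group, its mutant level was at least 151-fold higher. Counts were thus assigned to both genes in every mutant library.

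Fhl3, which encodes a LIM-domain protein of muscle and cytoskeleton, had 70, 15 and 52 counts in mutant libraries and 0 in every control library. Its mutant values of 3.55, 1.24 and 2.83 CPM spread widely, with mutant library 2 the lowest, and the mutant level was at least 43.6-fold higher. BC002163 had counts in both groups. It stood at 31.9, 34.1 and 35.1 CPM in mutant libraries and 2.91, 3.34 and 3.16 CPM in control libraries. The mutant level was 10.7 times the control level (95% exact interval 9.03 to 12.7), with little spread inside either group.

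The 10 genes therefore differed in how empty the lower group was. Tmem181b-ps, Gm8801 and Fhl3 had no count there, Raver2, Dynlt1b, H2-T10 and Padi4 had 1 count over 3 libraries, and Gm5506, BC002163 and Rbm45 had 172, 151 and 248 counts. They also differed in spread within the higher group. The highest over the lowest library was 3.19 for Padi4, 3.03 for Raver2, 2.87 for Fhl3 and 2.61 for Dynlt1b, and between 1.10 and 1.42 for the other 6 genes. Over all tested genes with counts in all 3 libraries, the median of this ratio was 1.42 in mutant and 1.39 in control libraries. The order of the libraries was not shared: of the 6 genes higher in controls, only Raver2 was highest in control library 3.

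The authors' deposited table gives fitted log2 fold changes from the same counts. Their sign was judged against these counts, so that positive values mark genes higher in mutants. That all 10 members have the direction given above was therefore fixed in advance and shows nothing more. For a gene with an empty group such a fitted value depends on the fit and is no limit, so it is not set against the ratios above. The authors' deposited table gives -8.30 ± 0.58 for Raver2, -7.04 ± 0.61 for Dynlt1b, -6.88 ± 0.64 for Tmem181b-ps and 7.22 ± 0.58 for H2-T10 (its standard errors). For genes with counts in both groups, the authors' deposited table has -5.55 ± 0.21 for Gm5506, 3.35 ± 0.23 for BC002163 and -3.03 ± 0.23 for Rbm45. Gm5506 is the gene listed first in the authors' deposited table.

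To show how many genes behave like these, the lowest CPM of the higher group was divided by the highest CPM of the lower group, with a count of 0 set to 1 count. This gap was at least 10 for 33 of the 11976 genes whose higher group averaged 1 CPM or more, 0.276% of them. Of the 33, 21 were higher in mutants (0.175%) and 12 lower (0.1%). Without mutant library 2, control library 1 or control library 2, the total was 51, 56 and 54 in place of 33. By its definition the gap of a gene can only stay or widen when a library is left out, apart from rescaling. The 33 included 8 of the 10 members, and since the members were chosen on these values nothing is read from that count. BC002163 (gap of 9.55) and Rbm45 (6.84) lay below 10. Non-overlap between the groups was far more common, at 22.8% of tested genes, and held for all 10 members. The widest gaps of the series, above 100, belonged to Raver2 (310), H2-T10 (214), Tmem181b-ps (127), Dynlt1b (110) and Gm8801 (102). Just inside a gap of 10 lay Arc (10.2) and Rab20 (10.1), and just outside lay Rnf151 and Mpeg1 (both 9.93), all higher in mutants.

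The 25 other genes past a gap of 10 were mostly higher in mutants, 18 against 7. The 10 with the widest gaps were all higher in mutants: Slc35d3 (62.5), Ndnf (51.5), Rprm (38.5), Ptgds (37.9), Zic5 (27.8), Sytl2 (26.98), Npy (25.4), Kcna1 (22.6), Zcchc12 (21.7) and Tifa (19.2). Ndnf, which encodes a secreted neurotrophic protein, averaged 112 CPM in mutant and 0.982 CPM in control libraries, so its low group was not empty. Sytl2, which encodes a synaptotagmin-like protein of vesicle transport, and Kcna1, a voltage-gated potassium channel gene, had no control counts, and both had low mutant means of 2.25 and 2.11 CPM. In all, 5 of the 25 had no count in the lower group.

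**Figure D2:**
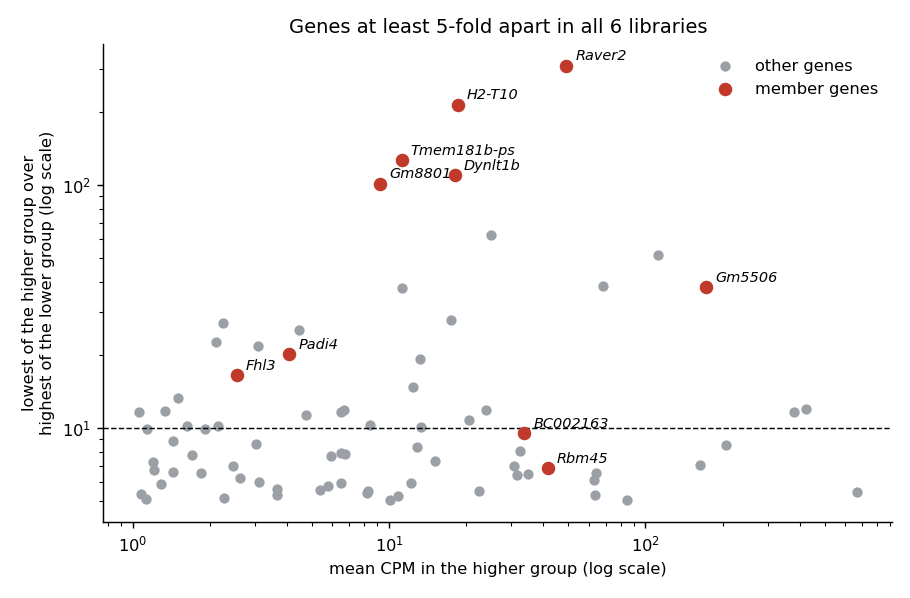
Gap between the groups (lowest CPM of the higher group over highest CPM of the lower group, log scale) against mean CPM in the higher group (log scale) for genes with a gap of at least 5; red points are the 10 members, grey points other genes, and the dashed line marks a gap of 10. Raver2, H2-T10, Tmem181b-ps, Dynlt1b and Gm8801 stand above 100, and BC002163 and Rbm45 lie under the line.

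The stated rule for choosing the members names counts only, yet genes with wide gaps such as Slc35d3 (62.5) were left out. Whether the kind of gene also guided the choice is not known, so the shares below are a description only. By sequence the members fell into 2 sets. Each annotated transcript was read in windows of 50 bases, and a window counted as shared when it also occurred, on either strand, in a transcript of another gene. Shared windows made up 85.2% of Gm5506 (read as Eno1b), 83.2% of Dynlt1b, 72.6% of BC002163, 50.8% of Tmem181b-ps and 50.4% of H2-T10. The other 5 genes shared less than 5%: 4.63% of Fhl3, 2.36% of Gm8801, 0.223% of Raver2 and none of Padi4 and Rbm45. Of the 11546 tested genes found by symbol, 2.31% reached 50%, and the median was 0.539%. Among the 24 other genes past a gap of 10 that were found by symbol, 0 reached 50% and 3 reached 10%, a mark that 17.04% of all matched genes reached. With windows of 100 bases, 5 members had shares over 10%, as did 12.8% of matched genes: Dynlt1b (81.99%), Gm5506 (74.7%), BC002163 (52.3%), Tmem181b-ps (33.3%) and H2-T10 (28.1%). The last pair then lay under 50%.

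Most shared windows led to the known relatives. For Gm5506, 76.4% of windows occurred in Eno1 and 63.0% in the retrocopy Gm4735, which has no row in the count table. For Dynlt1b, 76.3% occurred in Dynlt1a and 76.3% in Dynlt1c. All shared windows of BC002163 lay in Ndufs5, and those of Tmem181b-ps mainly in Tmem181a (44.4%). For H2-T10, 31.7% of windows occurred in H2-T22 and 24.9% in BC023719. With the longer windows this order was reversed, at 7.06% in H2-T22 and 22.5% in BC023719. Ndufs5, H2-T22 and Dynlt1c were listed at 0 in all 6 libraries. Across the count table, 57.9% of 956 protein-coding genes with at least 50% of windows shared were at 0 in every library, against 19.5% of 15360 with under 10%. These sets of genes were not matched for expression in the lens, and the cause of their difference was not tested. How the read counter treated reads with several matches is not given in the sources used here, and its part in the 5 values was not tested.

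**Figure D3:**
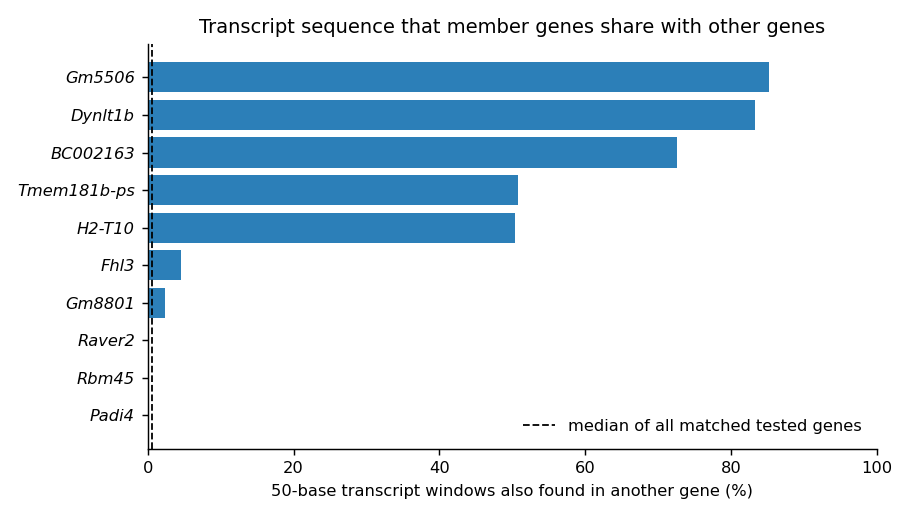
Percentage of each member's 50-base transcript windows that also occur in another gene; the dashed line is the median over all tested genes matched by symbol. Gm5506, Dynlt1b, BC002163, Tmem181b-ps and H2-T10 lie at 50.4% or more, and the other 5 genes at 4.63% or less.

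The close copies of the members were then examined, since these were not part of the choice. Dynlt1a, Dynlt1c and Dynlt1f together had 9.33, 6.59 and 12.1 CPM in mutant and 2.02, 8.26 and 8.08 CPM in control libraries, which overlap. Their difference was 3.24 CPM, mutant minus control (exact two-sided permutation p = 0.4, adjusted over 3 sums 0.5). The smallest p that 3 against 3 allows is 0.1, so this test could not pass and does not show that the copies were alike in both groups; the same holds for the next 2 sums. With Dynlt1b added, which the choice of members set apart, the sums were 9.33, 6.59 and 12.2 CPM in mutant and 11.1, 31.8 and 29.7 CPM in control libraries. Control library 1 then lay at the level of the mutants, and the other control libraries lay above them. Dynlt1a by itself averaged 8.52 CPM ± 2.31 in mutant and 4.86 CPM ± 3.25 in control libraries (SD, n = 3; edgeR adjusted p = 0.545).

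Tmem181a and Tmem181c-ps summed to 11.1, 13.0 and 9.97 CPM in mutant and 17.03, 12.3 and 13.9 CPM in control libraries. These ranges overlap between 12.3 and 13.0 CPM, and the difference was -3.05 CPM (exact two-sided permutation p = 0.2, adjusted 0.5). Control library 1 had 108 counts of Tmem181c-ps, against 0 to 10 in the other 5 libraries. Eno1, the source gene of the Gm5506 retrocopy and a glycolytic enzyme gene of most tissues, had 55, 49 and 37 counts in mutant and 60, 40 and 67 counts in control libraries, or 2.79, 4.04 and 2.02 CPM against 4.48, 2.43 and 3.71 CPM. The groups overlap, with a difference of -0.592 CPM (exact two-sided permutation p = 0.5, adjusted 0.5). The relatives listed for H2-T10 and BC002163, namely H2-T9, H2-T22 and Ndufs5, were at 0 throughout and gave no sum to test. BC023719, which also shares windows with H2-T10, was not in that list, and its level was not examined.

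**Figure D4:**
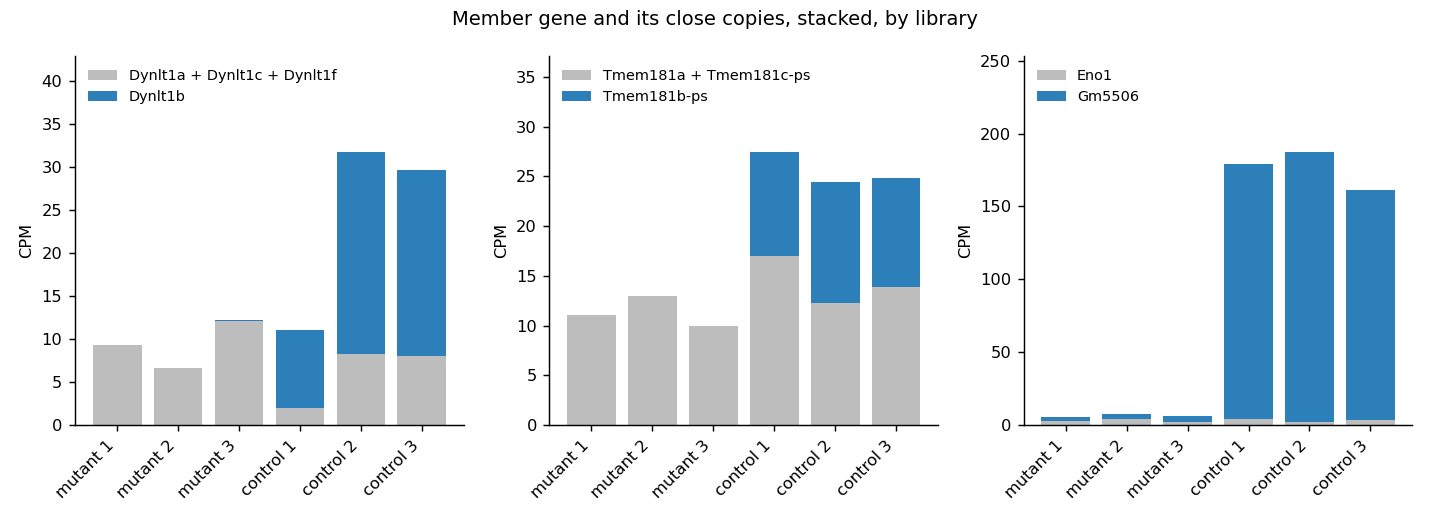
Stacked CPM of 3 members (blue) and of their close copies (grey) in each library, the 3 mutant libraries left of the 3 control libraries. The grey parts overlap between the groups for the Dynlt1 and Tmem181 genes and Eno1, and the blue parts are small or missing in mutant libraries.

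Partners in the families and complexes of the members did not pass the test. Of 58 listed genes, 36 were tested, and edgeR called 0 of them at an adjusted p under 0.05, beside 2.22% called over all 12257 tested genes. An unadjusted p under 0.05 was reached by 8 partners (22.2%), beside 16.2% of all tested genes. DESeq2 called 3 partners (8.33%), beside 6.7% of all genes, and limma voom 2 (5.56%), beside 6.54%. Their median log2 fold change was 0.01, beside 0.00 over all tested genes. The gene nearest to the threshold was H2-T24, another class I gene of the T region, with 0, 3 and 1 counts in mutant and 35, 21 and 53 counts in control libraries. Its log2 fold change of -4.62 ± 0.97 (SE) runs opposite to that of H2-T10 and narrowly missed the threshold (edgeR adjusted p = 0.0507). It passed with DESeq2 size factors (adjusted p = 0.0495), without a filter (0.0424), in limma voom (0.0167), in DESeq2 (0.00046) and when mutant library 2 was left out (0.0254). It did not pass with the replicate number as a block (0.152) or without any other single library (0.12 to 0.244). The classical class I genes H2-K1 and H2-D1, which present peptides on most cells, stood at 0.89 ± 0.39 and 1.62 ± 0.67 (SE) in log2 fold change, short of the threshold (edgeR adjusted p = 0.313 and 0.281). B2m, the gene of the light chain shared by class I molecules, had one of 0.32 ± 0.30 (SE; edgeR adjusted p = 0.638).

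In the dynein list, the cargo-binding light chain gene Dynlt3, a relative of Dynlt1b, averaged 131 CPM ± 13.6 in mutant and 130 CPM ± 24.5 in control libraries (SD, n = 3; edgeR adjusted p = 0.973). Dync1i1, an intermediate chain gene, stood at -1.40 ± 0.51 (log2 fold change with SE; adjusted p = 0.232 in edgeR), passing under DESeq2, under limma voom and when mutant library 2 was left out, but in none of the other fits run. The light chain gene Dynll1 had one of 0.50 ± 0.13 (SE; edgeR adjusted p = 0.109) and passed with DESeq2. Around Raver2, its relative Raver1 averaged 14.3 CPM ± 1.63 in mutant and 14.7 CPM ± 2.98 in control libraries, and Ptbp1, the gene of PTB, 279 CPM ± 65.8 and 237 CPM ± 67.6 (SD, n = 3; edgeR adjusted p = 0.955 and 0.702). Among relatives of Fhl3, Fhl1 stood at 0.47 ± 0.15 in log2 fold change (SE; adjusted p = 0.165 in edgeR). Only Padi3 of the deiminase genes related to Padi4 had enough counts to be tested, and it stood at -0.995 ± 0.921 in log2 fold change (SE; adjusted p = 0.639 in edgeR). The other enolase and complex I genes had log2 fold changes between -0.27 and 0.55 and between -0.04 and 0.32, and none of them passed in edgeR, DESeq2 or limma voom.

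The members were also placed among their neighbours. In the RefSeq annotation of GRCm38.p6, used for gene order only because the authors' build is mm9, 4 members lie on chromosome 17 (Dynlt1b, Tmem181b-ps, H2-T10 and Gm8801), 3 on chromosome 4 (Raver2, Padi4 and Fhl3), and Rbm45 and Gm5506 on chromosomes 2 and 18. BC002163 was placed on chromosome 16 from GENCODE. Dynlt1b and Tmem181b-ps are direct neighbours. H2-T10 and Gm8801 lie close together, with H2-T24 and a few other tested genes between them. Etv1 and Etv4 lie on chromosomes 12 and 11, which hold no member, and Etv5 lies on chromosome 16.

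Of the 165 distinct genes among the 10 nearest tested genes on each side of each member, 9 passed in edgeR, 3 rising and 6 falling. This is 5.45%, beside 2.22% over all tested genes, 1.14% rising and 1.08% falling. The share was 3.53% (3 of 85) with 5 genes on each side and 3.44% (11 of 320) with 20, and its difference from the share of all genes was not tested. Their median log2 fold change was -0.03, beside 0.00 over all tested genes. Without mutant library 1 or 3, 2 and 3 neighbours passed (1.21% and 1.82%), beside 0.783% and 0.723% of all genes. Without control library 2 or 3, 4 and 4 passed (2.42% each), beside 0.727% and 1.13%. With the replicate number as a block, 2 passed (1.21%), beside 0.995%. Without mutant library 2 or control library 1, 13 and 7 passed (7.88% and 4.24%), beside 3.78% and 1.76%. DESeq2 and limma voom each called 21 (12.7%), beside 6.7% and 6.54%. Next to Padi4, 5 of 20 neighbours passed. Igsf21, an immunoglobulin superfamily gene, rose to 13.5 CPM in mutant libraries, against 3.50 CPM in controls, and Necap2, an endocytosis gene, rose to 64.1 CPM, against 30.6 CPM in controls (edgeR adjusted p = 0.025 and 0.0158). Emc1, Atp13a2 and the ephrin receptor gene Epha2 fell, by 0.93, 0.84 and 0.87 on the log2 scale (edgeR adjusted p = 0.0135, 0.0299 and 0.0319). Their directions were thus mixed on both sides of Padi4.

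Elsewhere 1 neighbour or none passed per member. Dnajc6, which encodes auxilin of clathrin uncoating and lies 3 steps from Raver2, fell to 3.47 CPM in mutant libraries, against 14.9 CPM in controls (edgeR adjusted p = 0.0112). The genes directly beside Raver2 did not pass: Jak1, of the kinase of cytokine receptors, had a log2 fold change of 0.21, and Cachd1 one of 0.06. Rps6ka2, a ribosomal S6 kinase gene 6 steps from Dynlt1b, fell by 1.20 on the log2 scale (edgeR adjusted p = 0.0354), and 9930104L06Rik, 9 steps from Fhl3, fell by 2.66 (edgeR adjusted p = 0.00849). Timmdc1, which encodes an assembly factor of complex I and lies 9 steps from BC002163, rose to 47.7 CPM in mutant libraries, against 12.1 CPM in controls (edgeR adjusted p = 0.00117). It passed in all 6 fits that leave out 1 library. Dnajc6 and 9930104L06Rik passed in 5 of the 6 fits, and the other 6 genes in 1 to 3. H2-T24 and Rpp21 were the tested genes directly beside H2-T10, 1 on each side. Rpp21 had a log2 fold change of -0.05 (edgeR adjusted p = 0.918). From Gm8801, H2-T24 lay 5 steps away. No neighbour of Gm5506 or Rbm45 passed in edgeR, where the lowest adjusted p was 0.213 and 0.176.

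**Figure D5:**
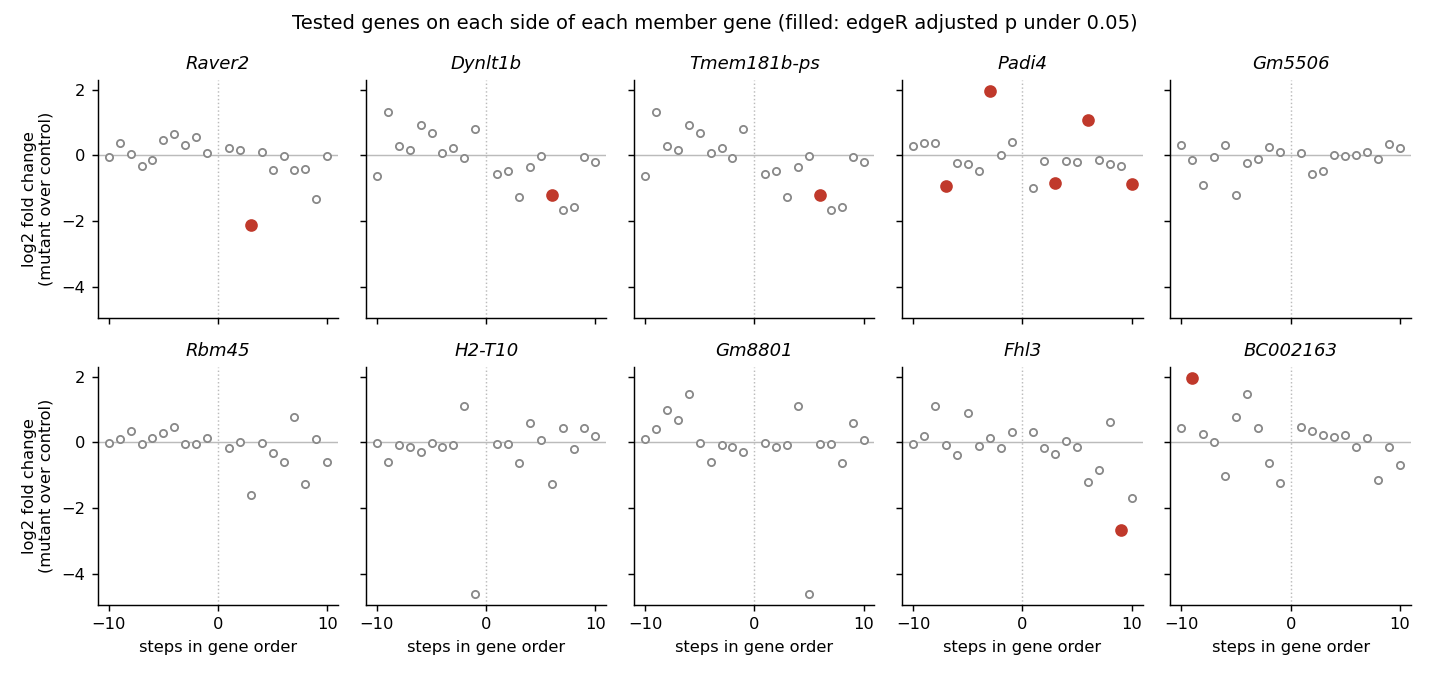
Log2 fold change (mutant over control) of the tested genes up to 10 steps on each side of each member in gene order; filled red points have an edgeR adjusted p under 0.05. Padi4 has 5 filled points in both directions, and the others have 1 or none.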

How the data were processed

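RNA of 3 mutant and 3 control lens samples was amplified with an ultra-low input SMART-seq kit and made into Nextera XT libraries, per the labels' protocols. Such cDNA carries no molecular identifiers and no strand, so intervals cover counting error only and overlapping genes may share counts. TopHat, Cufflinks, DESeq, bcl2fastq 1.8.4 and the build mm9 are listed without roles, per the submitters' processing notes. Not given in the sources used here: counter, annotation and handling of reads with several matches. Gene-level raw counts were deposited, equal in the sample files and the joint table (0 of 23420 genes differ). The deposited comparison table holds p-values before and after adjustment, log2 fold changes and their standard errors, a statistic (score) and the mean normalized signal.

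Genes were filtered by filterByExpr (minimum count 10, total 15; 12257 genes, all 10 members among them), scaled by TMM and tested with edgeR 4.0.16 (quasi-likelihood F test, robust, no covariate) in R 4.3.3, with Benjamini-Hochberg adjustment and a threshold of 0.05. The procedure was tested on simulated data. CPM uses TMM-scaled totals. Ratios of summed counts have exact 95% intervals, and a group at 0 was set to 3 counts. DESeq2 1.42.0 and limma 3.58.1 served as other tests. The other alternatives were DESeq2 size factors, no filter, a block for replicate number, a filter of 5 CPM in 3 libraries and leaving out each library. Transcript windows came from GENCODE M21, and gene order from RefSeq, where 9 of 10 members were found. Of 12257 tested genes, 12228 had a place in that order. The members and lists were chosen with earlier results of these data known. Named by rule are the members, their close copies, partners and neighbours past the threshold, the 10 other genes with the widest gap, and the 2 genes on each side of a gap of 10. H2-T24, H2-Q10, Rpp21, Jak1, Cachd1, H2-K1, H2-D1, B2m, Dynlt3, Raver1, Ptbp1, Fhl1, Padi3, Dync1i1 and Dynll1 were picked from the lists or neighbours after their values were seen.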

Additional observations from a re-analysis of the deposited data

How the results depend on the processing

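The direction of the 10 members was fixed by their choice, so its being kept under other settings shows nothing. Over the fits that leave out 1 library, the log2 ratio lay between -11.60 and -9.03 for Raver2, -8.06 and -5.32 for Padi4, -10.14 and -7.64 for Dynlt1b, and 7.57 and 9.88 for H2-T10. In each range the value nearest to 0 is no smaller ratio but a limit: it leaves out the library with the only count of the lower group (mutant library 1, 1 and 3, and control library 2, in that order of genes), and the group was then set to 3 counts. The number of genes called was 272 in edgeR, 821 with DESeq2, 801 with limma voom and 91 to 479 without single libraries (98, 479 and 91 without mutant library 1, 2 or 3; 92 and 142 without control library 2 or 3). Called neighbours numbered 9 in edgeR (5.45%, beside 2.22% of all genes). DESeq2 called 21 (12.7%, beside 6.7%) and limma voom 21 (12.7%, beside 6.54%). With 5 genes on each side 3 of 85 passed (3.53%), and with 20 genes 11 of 320 (3.44%). Without single libraries 2 to 13 passed, with the shares given above. These were 2, 13 and 3 without mutant library 1, 2 or 3, and 7, 4 and 4 without control library 1, 2 or 3. Called partners numbered 0 in edgeR, 1 with DESeq2 size factors, 1 without a filter, 3 with DESeq2, 2 with limma voom and 0 to 2 without single libraries. Genes past a gap of 10 numbered 33, against 78 at a gap of 5 (with all 10 members), 16 at 20, 21 with a mean of at least 5 CPM, and 36 to 56 without single libraries (51, 56 and 54 without mutant library 2, control library 1 or control library 2). By its definition the gap of a gene can only stay or widen when a library is left out, apart from rescaling. The cause of the other shifts was not tested. The sums of close copies kept their sign under size factors and without each library, where that of the Dynlt1 copies lay between 1.25 and 4.70 CPM, that of Eno1 between -1.16 and -0.121 and that of the Tmem181 copies between -4.16 and -1.82. With the replicate number as a block, 122 genes, 2 neighbours and 0 partners were called. Deviations from the group means correlated at -0.284, -0.147 and 0.219 between libraries of equal number 1, 2 and 3. Between libraries of unlike number the correlations lay between -0.358 and 0.408, so equal numbers did not stand out. With 3 libraries per group this cannot show whether samples of equal number share more than a number. Shared windows at 10% or more gave 5 members; both alternatives, chosen after seeing the data, gave 5 as well (100-base windows at 10%, and 50-base windows at 50%), whereas 100-base windows at 50% leave Tmem181b-ps and H2-T10 below the mark.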

Other observations

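A relative of the members had counts in a single library of each group. H2-Q10, a class I gene of the MHC Q region, had 41, 0 and 0 counts in mutant libraries 1, 2 and 3 and 0, 0 and 43 counts in control libraries 1, 2 and 3. The counts of H2-Q10 were thus not split by genotype, and the cause was not tested.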
